A study of Mus musculus with 6 samples.

Results

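E2F transcription factors and the genes that copy DNA were followed in fibroblasts of the joint lining, with and without compound 33. The set holds 44 of the 21033 gene symbols in the count table, of which 38 passed the filter on low counts and were tested, and 6 (E2f2, E2f8, Orc1, Gins1, Pole and Prim1) did not. It was defined by name: the 8 E2F factors, cyclin E and its kinase CDK2, and genes for origin licensing, the replicative helicase, polymerases, nucleotide supply and the packing of new DNA. Both groups were primary synovial fibroblasts of genotype hTNFtg, a mouse line with a human TNF transgene and arthritis, and came from the ankle joint. After 3 passages they received compound 33 at 10 µM or the vehicle DMSO for 48 h, with 3 libraries per group. The labels do not say how many mice gave cells, whether animals were pooled, or whether the replicates of a group were separate cultures, so every p-value rests on the spread among these libraries alone, and that spread may be technical.

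E2F factors are the switch at the entry into S phase. In resting cells the retinoblastoma protein and its relatives p107 and p130 hold E2F factors in a repressive state, and cyclin D with CDK4 or CDK6, followed by cyclin E with CDK2, phosphorylates those proteins and releases them. Free E2F then turns on the genes of licensing, DNA synthesis and nucleotide supply, so these transcripts are known to mark proliferating cells, and the expansion of synovial fibroblasts is part of the tissue growth seen in arthritis.

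Libraries held between 1594052 and 2897207 reads, and 10124 genes had enough reads to be tested. Levels are read counts per 1000000 reads (CPM) scaled between libraries by the TMM method, and the kit reads the 3′ ends of transcripts, so no length correction applies. The 12 fibroblast markers all had reads, and their sum ran from 15300 to 16400 CPM with DMSO and from 12900 to 14800 CPM with compound 33, ranges that do not overlap. Single markers went either way: Pdgfrb ran from 123 to 206 CPM with DMSO and from 254 to 304 CPM with compound 33. Thy1 ran from 574 to 871 CPM and from 427 to 525 CPM, and Lum from 226 to 326 CPM and from 142 to 218 CPM. The groups of the other fibroblast markers overlapped. Of the 12 markers 4 lay under an unadjusted 0.05 in the edgeR test used below, where 6.87% of all genes did. The 8 leukocyte markers summed to 64.2 to 139 CPM and 53.5 to 100 CPM, mostly Lyz2 and Cd14, with Ptprc (CD45) at no more than 1.39 CPM in any library. Endothelial markers summed to 2.44 to 3.71 CPM and 5.15 to 9.54 CPM, and Pecam1 had no read. Tek alone ran from 0.45 to 2.12 CPM and from 2.06 to 7.05 CPM. Skeletal muscle markers summed to 0.53 to 1.39 CPM and 2.49 to 4.89 CPM. Of these Des ran from 0.35 to 0.53 CPM and from 2.06 to 4.28 CPM, and the others stayed at or below 0.70 CPM in every library. Osteoclast markers summed to 139 to 280 CPM and 266 to 535 CPM, mostly Ctsk. Chondrocyte markers summed to 78.5 to 163 CPM and 112 to 156 CPM, and osteoblast markers to 12.7 to 36.5 CPM and 19.9 to 29.3 CPM. The part of these marker differences in the values below was not tested.

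E2F factors bind a short sequence, and its letters near the starts of the members are shown first. A search of the RefSeq windows from 250 bases before to 50 bases after each annotated start (build GRCm38.p6, the same assembly as mm10) looked for the E2F words TTTCCCGC, TTTGGCGC, TTTGCCGC and TTTCGCGC and their reverse complements on either strand. Such windows were found for 36 members, and 16 of these, or 44.4%, held at least 1 word, against 2.6% of all 27025 symbols in that table and 4.3% of the 11442 symbols that had a window and at least 1 read. In the following windows the matched letters lie upstream of the RefSeq start of 6 members that cover the factors, the kinase, the origin and the helicase. Each is read 5′ to 3′ on the strand of the gene, and capitals mark the matched letters.
E2f3: aagccgGCGGGAAAtctgag
Cdk2: ggaactGCGGGAAAgttgtg
Orc1: ttagtgGCGCGAAAagtttt
Mcm5: aagaacTTTCGCGCCAAAacgtcc
Mcm6: tatgctTTTGGCGCGAAAagtgcg
Mcm6 (nearer the start): gacgggTTTGGCGCgaagta
Mcm7: cgaaccGCGGGAAAcagggt
In Mcm5 a TTTCGCGC and the reverse complement of TTTGGCGC share the 4 letters in their middle, and in Mcm6 a TTTGGCGC and the reverse complement of TTTCGCGC do. The windows lie at chr13:29986061-29986080 (minus strand) for E2f3, chr10:128705178-128705197 (minus) for Cdk2, chr4:108579421-108579440 (plus) for Orc1 and chr8:75109350-75109373 (plus) for Mcm5. The Mcm6 windows lie at chr1:128359798-128359821 and chr1:128359739-128359758 (minus), and the Mcm7 window at chr5:138172035-138172054 (minus). The windows of E2f1, Pcna and Rrm2 held none of these words, which says only that the letters are not in those 300 bases. A match is a description of the sequence and not a measured binding site.

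In the comparison of compound 33 with DMSO, E2f1 was the member with the clearest difference, 1.61-fold higher with compound 33, but it did not pass the test over all genes. The members lay on both sides of 0, with 18 positive and 20 negative log2 fold changes among the 38 tested, where 48.9% of all genes were positive. None of the 38 passed edgeR's quasi-likelihood test, in which 0.0296% of the 10124 genes passed (3 genes), and the smallest adjusted p of a member was 0.587. Before adjustment 1 member lay under 0.05, higher with compound 33, where 6.87% of all genes did (3.64% higher and 3.23% lower). DESeq2 and limma-voom also passed 0 members and had the same number under an unadjusted 0.05.

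The median log2 fold change of the members was -0.03, beside -0.01 over all genes tested. Their values ran from -1.02 for Rfc4 to 0.68 for E2f1. Only 1 member had groups that did not overlap, where 13.4% of all genes did (6.64% higher and 6.73% lower). The 95% interval of a member reached a median of 0.65 to either side on the log2 scale. For 25 of the 38 members it stayed within a 2-fold change in either direction, as it did for 65.7% of all genes. For the other 13 members it reached past 2-fold, and for all of these but E2f1 it also held 0. E2f6 was the 1 member whose interval stayed within 1.5-fold. The authors' deposited table gives 37 members an adjusted p, the smallest being 0.522, and 0 pass, where 0.179% of genes in that table do.

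**Figure D1:**
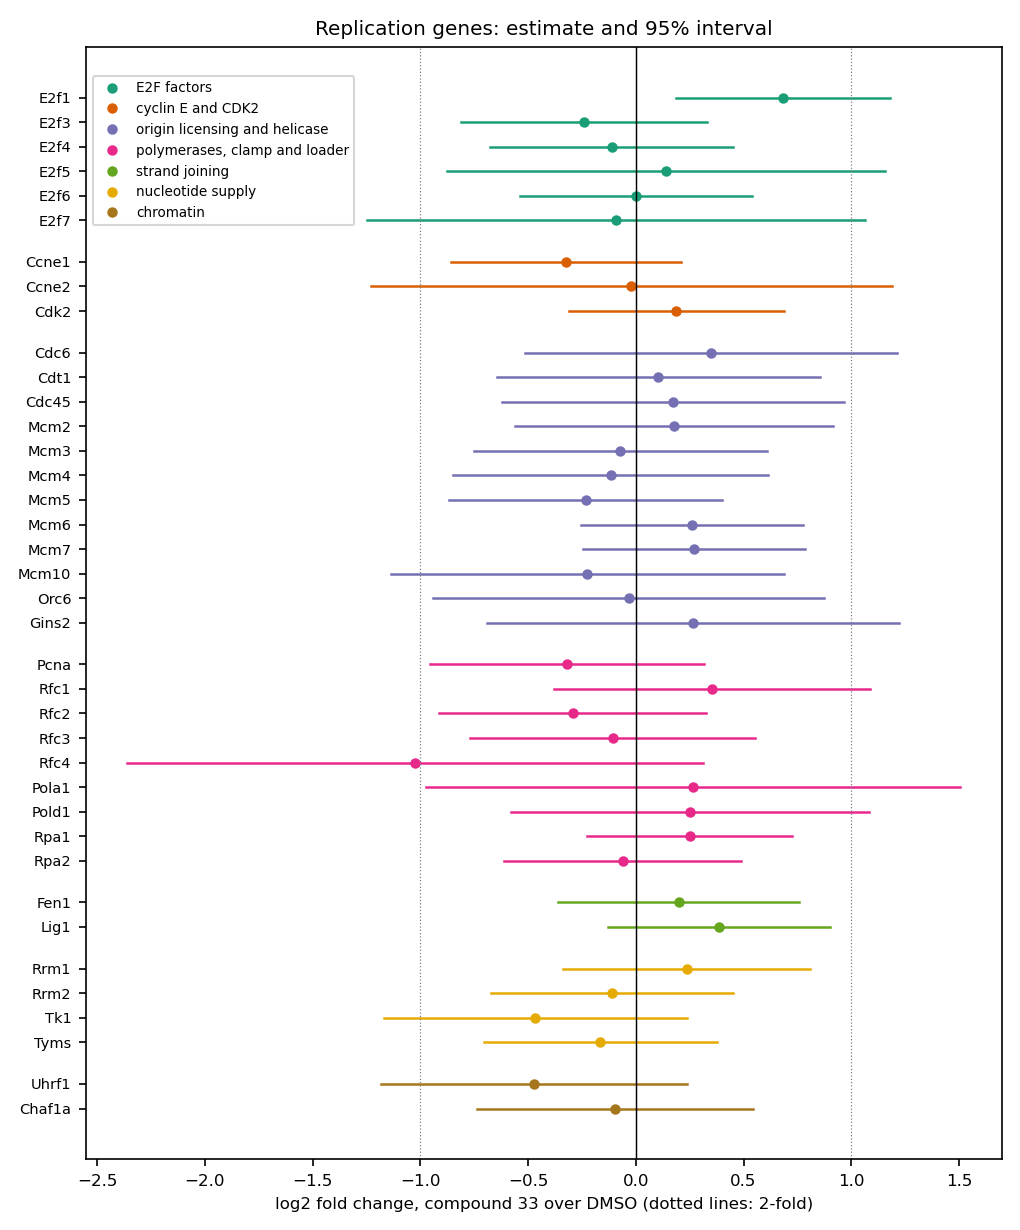
Log2 fold change of compound 33 over DMSO for the 38 tested members, grouped and coloured by role, with points for the estimate and lines for the 95% interval. Every interval except that of E2f1 (0.18 to 1.18) crosses 0, and the estimates fall on both sides of it.

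E2f1, the activator that is itself switched on at S-phase entry, stood at 84.3, 136 and 143 CPM in the DMSO libraries and at 189, 208 and 188 CPM with compound 33. The compound 33 libraries lay close together and above every DMSO library, and the gap to the highest DMSO library was smaller than the spread among the DMSO libraries. The group values were 121 ± 32.02 and 195 ± 11.2 CPM (mean ± SD, n = 3 per group). The log2 fold change was 0.68 (SE 0.23, 95% interval 0.18 to 1.18, unadjusted p = 0.011, adjusted p = 0.587). Leaving out DMSO replicate 1 gave 0.48, the lowest value, and leaving out DMSO replicate 3 gave 0.82, the highest, and the unadjusted p stayed at or below 0.0412 under all 15 alternatives, while the adjusted p ran from 0.444 to 0.886. The authors' deposited table lists E2f1 at 0.68 on the log2 scale with an SE of 0.25 and an adjusted p of 0.522. The gene spans bases 154559407 to 154569892 of chromosome 2 in mm10 (minus strand), and its exons overlap no other annotated gene. In bulk RNA a change in the number of cells that express such a gene and a change in RNA per cell cannot be told apart.

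E2f2 and E2f3 are the other activators. E2f3 measured 30.8, 24.8 and 29.9 CPM in the DMSO libraries and 30.6, 18.7 and 23.7 CPM in the compound 33 libraries. Its groups overlapped, with a log2 fold change of -0.24 (95% interval -0.81 to 0.33). E2f2 had 0, 1 and 3 reads with DMSO and 1, 4 and 1 reads with compound 33, under the filter. Without the filter its log2 fold change was 0.76 (unadjusted p = 0.521 in edgeR). The 0 reads in DMSO replicate 1 allow a level of up to 1.59 CPM, counting error only.

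E2f4 and E2f5 are the E2F factors that work mainly with p107 and p130 in resting cells. E2f4 measured 25.5, 20.3 and 25.1 CPM in the DMSO libraries and 19.0, 26.1 and 20.1 CPM in the compound 33 libraries, which gave -0.11 (SE 0.26) as log2 fold change. E2f5 was sparse, at 6.36, 3.16 and 8.70 CPM and at 7.95, 8.29 and 4.12 CPM. For both factors the values of the groups were interleaved.

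E2f6, E2f7 and E2f8 repress without the retinoblastoma family. E2f6, which acts with Polycomb proteins, measured 35.5, 33.4 and 52.9 CPM in the DMSO libraries and 39.1, 45.2 and 38.1 CPM in the compound 33 libraries. Its log2 fold change was 0.0018 (95% interval -0.54 to 0.54). E2f7, an atypical factor that lowers E2F targets late in S phase, measured 9.01, 8.57 and 2.09 CPM with vehicle and 7.95, 4.98 and 5.15 CPM with compound 33. E2f8, its close relative, had 7, 7 and 5 reads with DMSO and 5, 11 and 8 reads with compound 33, under the filter, and 0.50 as log2 fold change without it (unadjusted p = 0.43). DMSO replicate 3 was the low library for E2f7, and no factor other than E2f1 had separate groups.

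Cyclin E and CDK2 drive the last step before S phase. Ccne1 measured 37.7, 59.5 and 40.4 CPM in the DMSO libraries and 36.7, 38.6 and 34.5 CPM in the compound 33 libraries. Compound 33 replicates 1 and 3 lay just below every DMSO library and replicate 2 did not, DMSO replicate 2 stood high, and the log2 fold change was -0.33 (95% interval -0.86 to 0.21). Ccne2 was sparse, at 7.42, 2.71 and 2.79 CPM and at 4.89, 2.49 and 5.15 CPM. Cdk2, the kinase, measured 49.8, 38.3 and 56.4 CPM in the DMSO libraries and 60.5, 55.1 and 49.4 CPM in the compound 33 libraries, which gave 0.19 (95% interval -0.31 to 0.69) as log2 fold change. Exons of Cdk2 overlap Pmel on the opposite strand, and those of Ccne2 overlap Ints8.

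**Figure D2:**
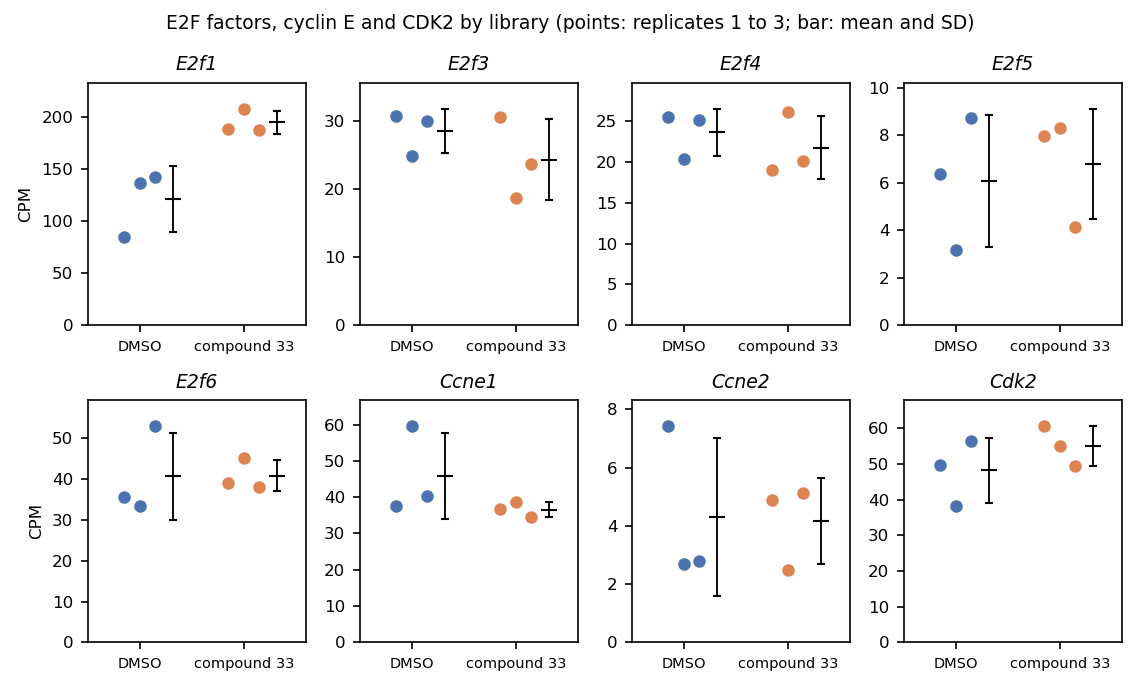
CPM of 5 E2F factors, both E cyclins and Cdk2 in each library, with DMSO in blue, compound 33 in orange, and the mean and SD beside the points. E2f1 is the panel in which all 3 compound 33 libraries (188 to 208 CPM) lie above all DMSO libraries (84.3 to 143 CPM).

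Licensing loads the Mcm2 to Mcm7 ring onto origins through the origin recognition complex, Cdc6 and Cdt1, and Cdc45 with the GINS complex then turns the ring into the active helicase. Of 14 genes in this group 12 were tested, 7 with a positive and 5 with a negative log2 fold change, and none lay under an unadjusted 0.05. The 6 ring subunits divided evenly. Mcm2 (0.18), Mcm6 (0.26) and Mcm7 (0.27) had positive log2 fold changes and Mcm3 (-0.07), Mcm4 (-0.12) and Mcm5 (-0.23) negative ones. All 6 had 95% intervals within 2-fold. Exons of Mcm7 overlap Ap4m1 and Cops6 on the opposite strand.

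Mcm6 and Mcm4 had the most reads in this group. Mcm6 measured 64.2, 81.7 and 56.1 CPM in the DMSO libraries and 96.0, 82.9 and 62.8 CPM in the compound 33 libraries. Mcm4 measured 62.0, 83.0 and 80.8 CPM in the DMSO libraries and 98.4, 79.6 and 30.9 CPM in the compound 33 libraries. The first compound 33 library was the highest of all for both genes, and compound 33 replicate 3 was the lowest of all for Mcm4.

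The loaders and activators of the ring gave wider intervals. Cdc6, the ATPase that loads it, had a log2 fold change of 0.35 (95% interval -0.52 to 1.21), and Cdt1, its partner, 0.11. Cdc45 had 0.17, the GINS subunit Gins2 0.27, the origin subunit Orc6 -0.03, and Mcm10, which helps start the helicase, -0.22. Orc1 had 8, 5 and 13 reads with DMSO and 10, 7 and 12 reads with compound 33, and Gins1 had between 1 and 4 reads in every library. Both were under the filter. Without it Orc1 had a log2 fold change of 0.42 (unadjusted p = 0.458 in edgeR) and Gins1 of -0.43 (unadjusted p = 0.686).

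The polymerases, the sliding clamp and its loader were likewise mixed, with 4 of 9 tested members positive. Pcna, the clamp, averaged 52.0 ± 21.9 CPM in the DMSO libraries and 41.5 ± 7.01 CPM in those with compound 33, which gave -0.32 (95% interval -0.96 to 0.31) as log2 fold change, and 0.07 without DMSO replicate 2. Among the subunits of the clamp loader, Rfc1 had 0.35, Rfc2 -0.29, Rfc3 -0.11 and Rfc4 -1.02. The Rfc4 value rests on 18, 23 and 11 reads against 13, 7 and 2, with a 95% interval of -2.36 to 0.31, and ran from -0.57 without compound 33 replicate 3 to -1.90 (unadjusted p = 0.015) without compound 33 replicate 1. Exons of Rfc4 overlap Eif4a2 on the opposite strand.

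Rpa1 and Rpa2, subunits of the protein that coats single-stranded DNA, had the most reads of this group. Rpa1 measured 84.8, 65.9 and 60.9 CPM in the DMSO libraries and 74.0, 88.7 and 88.0 CPM in the compound 33 libraries. Rpa2 measured 87.5, 57.3 and 52.9 CPM with vehicle and 49.5, 65.1 and 73.6 CPM with compound 33. The groups of both genes overlapped, and in each gene DMSO replicate 1 was above the other DMSO libraries. The catalytic subunits of the polymerases were sparse: Pola1 had a log2 fold change of 0.27 (SE 0.58) and Pold1 of 0.25 (SE 0.38). Pole had 1, 11 and 3 reads with DMSO and 9, 8 and 7 with compound 33, and the primase subunit Prim1 had 6, 5 and 14 and 6, 13 and 3, both under the filter. Without it their log2 fold changes were 0.89 and 0.04 (unadjusted p = 0.198 and 0.948 in edgeR).

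Fen1 and Lig1 trim and seal the fragments of the lagging strand. Lig1, the ligase, measured 163, 109.6 and 99.2 CPM in the DMSO libraries and 133, 179 and 173 CPM in the compound 33 libraries. Its log2 fold change was 0.39 (95% interval -0.13 to 0.90, unadjusted p = 0.13), and 0.63 (unadjusted p = 0.0127) without DMSO replicate 1, the highest DMSO library. Fen1, the nuclease, measured 27.6, 23.0 and 18.5 CPM with vehicle and 23.2, 26.9 and 28.3 CPM with compound 33. Compound 33 replicate 1 was the lowest of its group in both genes. Exons of Lig1 overlap Zswim9, and those of Fen1 overlap Tmem258 and Gm10143, on the opposite strand.

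Nucleotide supply depends on ribonucleotide reductase, made of Rrm1 and Rrm2, and on the thymidine enzymes Tk1 and Tyms. Rrm2, the subunit that limits the reaction in S phase, measured 104.5, 96.5 and 80.8 CPM in the DMSO libraries and 89.9, 114 and 56.6 CPM in the compound 33 libraries. Rrm1 measured 70.0, 61.4 and 52.2 CPM with vehicle and 86.8, 83.7 and 45.3 CPM with compound 33. In both genes compound 33 replicate 3 was the lowest of the 6 libraries. Tk1 had a log2 fold change of -0.47 (95% interval -1.17 to 0.24), or -0.75 (unadjusted p = 0.033) without DMSO replicate 3, and Tyms of -0.16 (95% interval -0.71 to 0.38).

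Uhrf1 and Chaf1a act behind the fork, on the methylation and the packing of new DNA. Uhrf1 measured 18.6, 19.9 and 12.2 CPM in the DMSO libraries and 14.1, 12.9 and 9.27 CPM in the compound 33 libraries, which gave -0.47 (95% interval -1.18 to 0.24) as log2 fold change. Chaf1a measured 37.7, 19.9 and 20.9 CPM with vehicle and 26.3, 25.7 and 20.6 CPM with compound 33. Neither had separate groups, and DMSO replicate 1 alone was high for Chaf1a.

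Members with and without the letters of the E2F site had overlapping ranges of response. The 14 tested members with a word in the window had a median log2 fold change of 0.15 (range -0.47 to 0.39), 8 of them positive. The 18 tested members with a window but no word had a median of -0.05 (range -1.02 to 0.68), 8 of them positive. No test was made of this split, and E2f1, the highest value, belongs to the second set.

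Libraries of the same group differed in how high the members stood. Compound 33 replicate 3 was the lowest of the 6 libraries for 14 of the 38 members (36.8%), against 20.6% of all genes tested. DMSO replicate 3 was the lowest for 10 members (26.3%), against 10.9% of all genes. In compound 33 replicate 3, 16 members lay below all DMSO libraries and 5 above them, where 27.3% of all genes lay below and 27.2% above. In each of the other compound 33 libraries 4 members lay below, where 24.4% and 21.1% of all genes did, and 10 above, where 24.1% and 21.9% of all genes did. The 10 of 38 are near the share over all genes.

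The summed level of the ring subunits Mcm2 to Mcm7 was 311, 385 and 272 CPM with DMSO and 409, 378 and 222 CPM with compound 33. Replicate 3 was the lowest in each group. Without compound 33 replicate 3 the median log2 fold change of the members was 0.22, with 26 of 40 tested members positive, while the median over all genes was -0.01, and 0 members passed. Members were most often lowest in that library, so a higher median without it follows from this and is no separate result. The median was -0.13 without compound 33 replicate 1 and 0.16 without DMSO replicate 1.

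**Figure D3:**
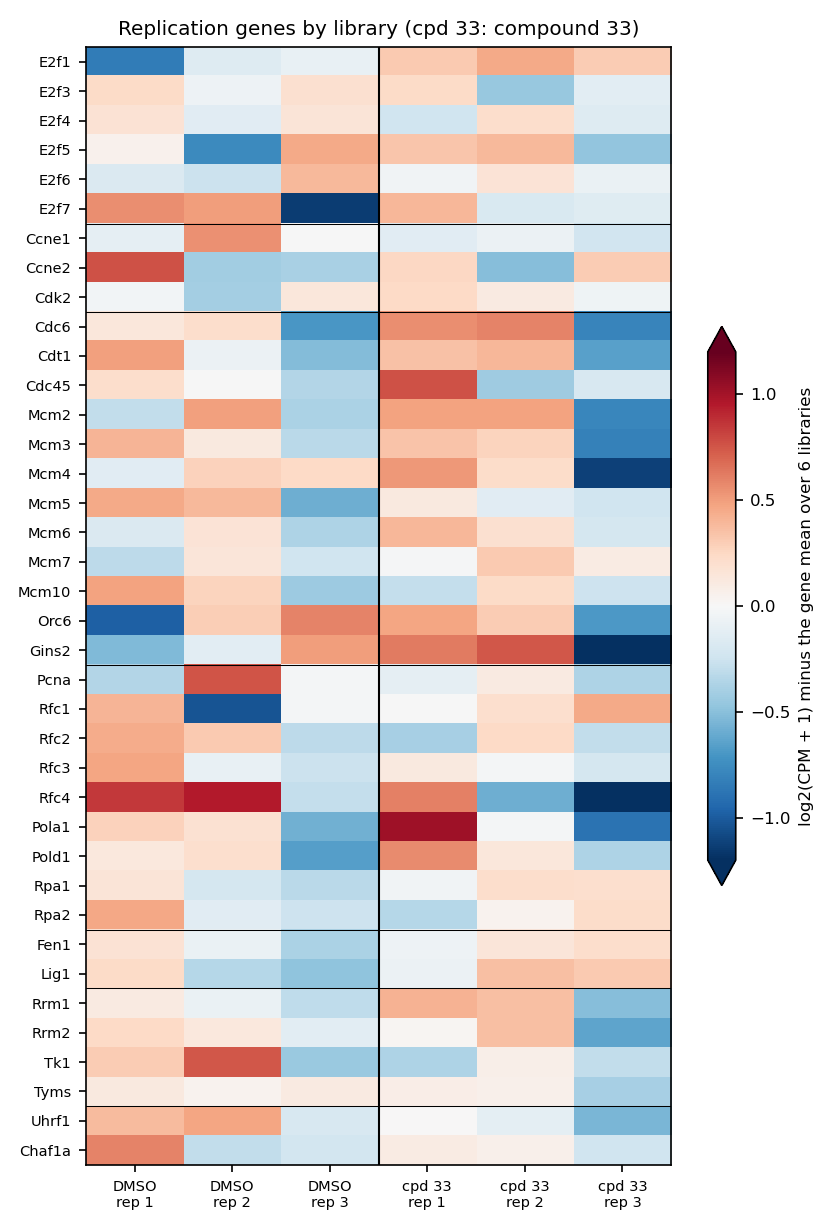
Heat map of log2(CPM + 1) minus the gene's mean over 6 libraries, with the 38 tested members as rows by role and libraries as columns. Compound 33 replicate 3 is blue (low) for every licensing gene except Mcm7 and is the lowest library for 6 of these 12, and E2f1 in the first row changes colour between the groups.

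The summed level of genes of G2 and mitosis, the phases that follow replication, was lowest in replicate 3 of each group as well. Of 30 listed genes 27 were tested, with 14 positive and 13 negative log2 fold changes and a median of 0.0017, and 0 passed in edgeR, DESeq2 or limma-voom. The mitotic genes summed to 1261, 1382 and 913 CPM with DMSO and 1329, 1411 and 936 CPM with compound 33. Gene by gene, compound 33 replicate 3 was the lowest of the 6 libraries for 14 of the 27 (51.9%), against 20.6% of all genes tested. DMSO replicate 3 was the lowest for 8 (29.6%), against 10.9% of all genes. Top2a, the topoisomerase of dividing cells, measured 132, 90.7 and 68.2 CPM with vehicle and 118, 103 and 60.7 CPM with compound 33, which gave -0.04 as log2 fold change. Mki67, the Ki-67 antigen, measured 34.5, 19.9 and 13.6 CPM with vehicle and 14.1, 21.6 and 14.4 CPM with compound 33, which gave -0.40 (95% interval -1.18 to 0.37) as log2 fold change. Before adjustment 2 of the 27 mitotic genes lay under 0.05, where 6.87% of all genes did. Cdc25b, a phosphatase that activates CDK1, had 0.65 (SE 0.28, adjusted p = 0.714), and the spindle motor Kif11 had -0.93 (SE 0.40, adjusted p = 0.714). The groups of Cdc25b overlapped and those of Kif11 were separate. In DESeq2 their unadjusted p was 0.0512 and 0.0814, and in edgeR with a library left out it reached 0.138 and 0.198.

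Further genes of replication were measured beside the members. Of 56 listed genes 47 were tested, 22 positive and 25 negative, with a median log2 fold change of -0.05, and 0 passed in edgeR, DESeq2 or limma-voom. Groups were separate for 1 higher and 6 lower genes of the 47, where 6.64% and 6.73% of all genes were. Under an unadjusted 0.05 lay 4 of the 47, where 6.87% of all genes did. Rpa3, the smallest RPA subunit, measured 5.83, 32.5 and 12.5 CPM in the DMSO libraries and 5.50, 2.07 and 2.57 CPM in the compound 33 libraries. Its groups barely separated, DMSO replicate 2 stood far above the rest, and the log2 fold change was -2.37 (SE 0.63, unadjusted p = 0.00222, adjusted p = 0.401), or -1.51 without that library. In DESeq2 Rpa3 had an adjusted p of 0.0999. The other RPA subunits, Rpa1 and Rpa2, had log2 fold changes of 0.25 and -0.06. Gins4 of the GINS complex had -0.64 (SE 0.30), the mismatch repair gene Msh6 0.57 (SE 0.23) and Cdca7, a chromatin remodelling partner, 1.03 (SE 0.46), with adjusted p of 0.72, 0.697 and 0.72 in edgeR. The groups of Cdca7 overlapped, and those of Gins4 and Msh6 were separate. In DESeq2 the unadjusted p was 0.0902 for Gins4, 0.0648 for Msh6 and 0.0699 for Cdca7.

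Genes that control E2F lay on both sides of 0, and cyclin D1 had the smallest p among them. Of 26 listed genes 24 were tested, 11 positive and 13 negative, with a median log2 fold change of -0.03, and 0 passed in edgeR, DESeq2 or limma-voom. Under an unadjusted 0.05 lay 3, all higher with compound 33, where 3.64% of all genes were under it and higher. Groups were separate for 4 higher and 2 lower genes of the 24, where 6.64% and 6.73% of all genes were. Ccnd1, cyclin D1, measured 168, 295 and 242 CPM in the DMSO libraries and 441, 403 and 387 CPM in the compound 33 libraries. All compound 33 libraries were above all DMSO libraries, 1.75-fold in the fit, with a log2 fold change of 0.80 (SE 0.23, 95% interval 0.30 to 1.30, unadjusted p = 0.00403, adjusted p = 0.486). Leaving out DMSO replicate 1 gave 0.61 and leaving out DMSO replicate 2 gave 1.01, and the adjusted p ran from 0.186 to 0.851 over 15 alternatives. Ccnd1 spans bases 144929931 to 144939925 of chromosome 7 (minus strand), and its exons overlap LTO1 on the other strand.

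Cdk6 measured 140.5, 131 and 133 CPM in the DMSO libraries and 207, 177 and 166 CPM in the compound 33 libraries. The log2 fold change was 0.44, with an SE of 0.20 and an adjusted p of 0.72. Cdkn2a, which encodes the CDK4 and CDK6 inhibitor p16 and the p53 activator ARF, measured 285, 184 and 253 CPM with vehicle and 302, 374 and 329 CPM with compound 33. The log2 fold change was 0.48, with an SE of 0.22 and an adjusted p of 0.72. Both had separate groups, exons of Cdk6 overlap Gm17590 on the opposite strand, and a 3′ count does not tell p16 from ARF. The unadjusted p of Cdk6 was 0.167 without compound 33 replicate 1, and that of Cdkn2a was 0.173 without DMSO replicate 2. The remaining genes with separate groups did not reach an unadjusted 0.05 and are named after their values were seen. Tfdp2, a partner of E2F factors, had a log2 fold change of 0.42 (SE 0.33). Cdkn2c, the CDK4 and CDK6 inhibitor p18, averaged 23.2 ± 5.29 CPM with vehicle and 16.9 ± 2.49 CPM with compound 33, and its log2 fold change was -0.43 (SE 0.28). Lin52, of the DREAM complex that represses cell cycle genes in resting cells, had -0.92 (SE 0.46). The groups overlapped for Cdk4 (114 ± 22.5 and 117 ± 11.9 CPM), for the retinoblastoma gene Rb1 (28.6 ± 5.25 and 25.3 ± 1.47 CPM) and for Cdkn1a, the inhibitor p21 (461 ± 85.8 and 469 ± 81.8 CPM). Tfdp1, the DNA-binding partner of E2F factors, stood at 60.6 ± 7.10 and 53.8 ± 4.34 CPM (mean ± SD, n = 3 per group).

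**Figure D4:**
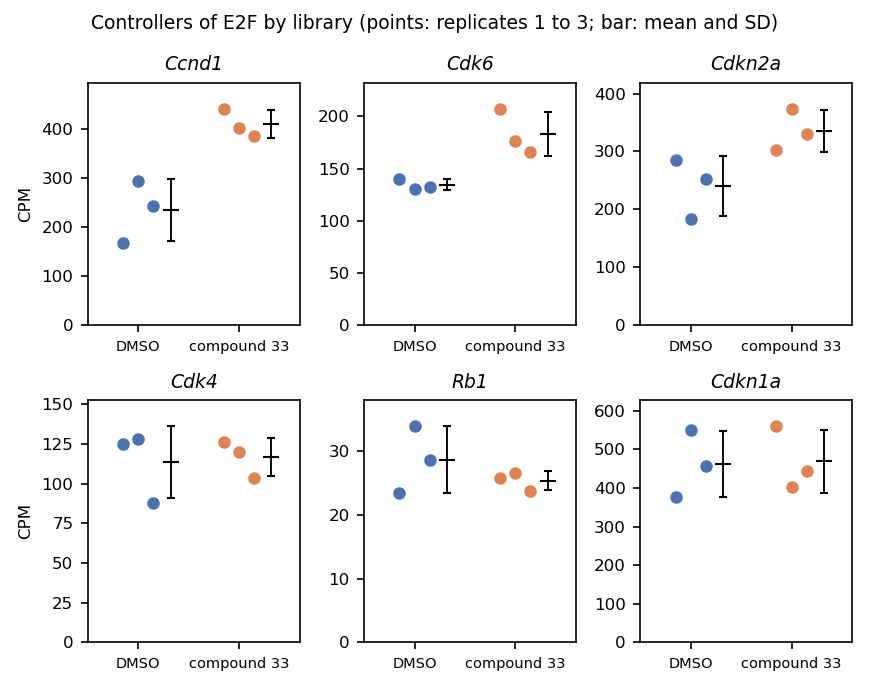
CPM of 6 controllers of E2F in each library, with DMSO in blue, compound 33 in orange, and the mean and SD beside the points. The groups are separate for Ccnd1, Cdk6 and Cdkn2a (upper row) and overlap for Cdk4, Rb1 and Cdkn1a (lower row), and the separate groups of Tfdp2, Cdkn2c and Lin52 are not drawn.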

How the data were processed

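RNA was measured in 6 libraries, 3 with DMSO and 3 with compound 33, made with a QuantSeq 3′ kit and read on an Ion Proton instrument, per the labels' protocols. The build mm10 and the tools HISAT2 2.2.1, featureCounts 2.0.3, FastQC 0.11.9 and DESeq2 come from the submitters' processing notes. Neither the annotation nor the strand setting of the counting is stated in these sources. If strand was ignored, 17 of the 44 members could share reads with a gene on the other strand that overlaps their exons in GENCODE M21. Under any strand setting, exons of 2 members overlap a gene on the same strand, Mcm7 with Mir25 and Mir93 and Rpa1 with Gm47300. The authors deposited whole-number read counts per gene symbol. They also deposited a comparison table. There the authors' mean normalized count is a signal, the fold change and its error are log2 values, the Wald statistic is a score, and p-values complete it.

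Counts were fitted in R 4.3.3 with edgeR 4.0.16 (filterByExpr with a minimum count of 10, TMM scaling, quasi-likelihood F test with robust estimation, group as the only term, all 6 libraries, two-sided). P-values were adjusted by the Benjamini-Hochberg method over 10124 genes, with a threshold of 0.05. The script was tested on simulated data. The standard error was taken as the unshrunk log2 estimate over √F, and 95% intervals use the test's degrees of freedom. A median and a count describe each list, with no set test. The alternatives were 3 other scalings, 2 other low-count filters, DESeq2 1.42.0, limma-voom (limma 3.58.1), no robust estimation, the replicate number as a block and each library left out. No 2 replicates were alike within sampling noise (chi-square per degree of freedom of at least 4.34).

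The members and lists were chosen with earlier results of these data known. By the rule for naming, values in every library are given for the E2F factors, cyclin E, Cdk2, members under an unadjusted 0.05 or with separate groups, and the 2 members with the most reads in each role. From the other lists it names those under an unadjusted 0.05, with Mki67 and Top2a. Cdk4, Rb1, Cdkn1a, Tfdp1, Tfdp2, Cdkn2c and Lin52 were added after their values were seen.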

Additional observations from a re-analysis of the deposited data

How the results depend on the processing

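No member passed over all genes under any of the 15 alternatives. Over all genes 3 passed, but 21 without a low-count filter, 18 in DESeq2, 7 with the replicate number as a block, and 1 to 7 with a library left out. Members under an unadjusted 0.05 numbered 2 with the replicate block, where Rfc4 joined E2f1, and 1 to 2 with a library left out. Same-numbered libraries had correlations of their deviations of -0.032, 0.214 and 0.076, so the labels' numbers were not taken as pairs, and not every library correlated best with its own number. The median of the members ran from -0.13 without compound 33 replicate 1 to 0.22 without compound 33 replicate 3. Members with separate groups numbered 3 to 9 with a library left out, when fewer values must separate. The share of all genes with separate groups was not computed in those fits, so these counts say nothing particular about the members. Under an unadjusted 0.05 the other replication genes numbered 4, but 5 without a low-count filter, where 56 were tested instead of 47. They numbered 1 with a minimum count of 30, where 26 were tested. In DESeq2 and in limma-voom they numbered 2, and 2 to 4 with a library left out. Mitotic genes numbered 2, but 1 with that minimum count, where 19 were tested instead of 27. They numbered 1 in limma-voom and with the replicate block, 0 in DESeq2 and 0 to 5 with a library left out. E2F control genes numbered 3, but 1 with the replicate block and 1 to 3 with a library left out.

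Signs turned for these genes. E2f6 was -0.0046 without scaling, E2f7 0.20 and Ccne2 0.077 in limma-voom, and with the replicate block Ccne2 was 0.046 and Orc6 0.0007. With a library left out the log2 fold change ran from -0.16 to 0.53 for E2f5, -0.12 to 0.25 for E2f6, -0.56 to 0.21 for E2f7, -0.28 to 0.56 for Ccne2, -0.13 to 0.42 for Cdt1, -0.29 to 0.43 for Cdc45, -0.013 to 0.52 for Mcm2, -0.26 to 0.23 for Mcm3, -0.44 to 0.24 for Mcm4, -0.37 to 0.31 for Orc6 and -0.067 to 0.68 for Gins2. It ran from -0.53 to 0.072 for Pcna, -0.27 to 0.15 for Rfc3, -0.43 to 0.67 for Pola1, -0.014 to 0.48 for Pold1, -0.20 to 0.19 for Rpa2, -0.35 to 0.13 for Rrm2, -0.25 to 0.25 for Chaf1a, -0.68 to 0.025 for Mki67 and -0.25 to 0.24 for Top2a. E2f1 and Ccnd1 kept their sign under every alternative. So did each tested member not listed here, wherever it was tested, so a stable sign is not particular to E2f1. Among these were Lig1 and Mcm7 with positive values and Ccne1, Tk1 and Uhrf1 with negative ones. The cause of these shifts was not tested.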
